A study of Saccharomyces pastorianus Weihenstephan 34/70 with 7 samples.

Results

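The 43 genes described here cover the sulfur, methionine and threonine metabolism of yeast. They were taken as a list of gene names from 5635 S. cerevisiae genes measured on the arrays. The list was chosen with earlier results of these data known, so that its shares beside all genes are descriptive. Each of the 43 genes was represented by 1 probe set, and none of these was marked as shared with similar transcripts. By role they fell into sulfate reduction (11 genes), methionine and S-adenosylmethionine (SAM) synthesis (10) and methionine salvage (5). The rest belonged to cysteine and glutathione metabolism (6), the threonine branch (5) and regulators (6).

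The flocculent lager brewing yeast Weihenstephan 34/70 was fermented at 14°C in all-malt wort brought to 21°Plato with either maltose or glucose syrup, with or without Flavourzyme. Flavourzyme is a peptidase mixture from the mould Aspergillus oryzae that releases amino acids and peptides from wort protein, and was added at 60 ppm. RNA from stationary phase cells, sampled between 200 and 220 h, was hybridised to Affymetrix Yeast Genome 2.0 arrays. The 4 groups were maltose wort with Flavourzyme (n = 1 array), maltose control wort without the enzyme (n = 2), glucose wort with Flavourzyme (n = 2) and glucose control wort (n = 2), 7 arrays in all. The study describes samples in duplicate, but only 1 array of maltose wort with Flavourzyme was among those used here. The sampling time differed with wort and enzyme, so that time and treatment cannot be told apart. The strain is a hybrid of S. cerevisiae and S. eubayanus, while the probes were designed for S. cerevisiae and S. pombe, so that transcripts of both parental copies of a gene can add to 1 signal.

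Yeast takes up sulfate, activates it and reduces it to sulfide, which is joined to a carbon chain made from aspartate to give homocysteine. Homocysteine is methylated to methionine and passed on to SAM, or converted to cysteine and glutathione, while the same aspartate-derived chain also leads to threonine. The pathway is switched on by the activator Met4 with its DNA-binding partners and is held back when cysteine and SAM are plentiful. Amino acids in wort feed into these steps, and sulfide made by brewing yeast affects beer flavour.

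Signals are log2 values, in which 1 unit is a doubling. Of the 43 genes, 42 had a mean signal above 4.96, the level that 95% of the S. pombe probe sets on the same arrays stayed under. The exception was MET16, the reductase of activated sulfate, whose signal lay between 2.66 and 3.01 on the 7 arrays, so that no difference could be read from it. The duplicates of the 43 genes differed by a median of 0.08 in maltose control wort, 0.30 in glucose wort with Flavourzyme and 0.55 in glucose control wort. Duplicates lay more than 1 unit apart for 0 of the 43 genes in maltose control wort, for 1 in glucose wort with Flavourzyme (MET1) and for 7 in glucose control wort (MET8, MET17, SAM2, MDE1, CYS4, GSH2 and HOM3). Across all genes the duplicates correlated with r = 0.997 in maltose control wort, 0.988 in glucose wort with Flavourzyme and 0.928 in glucose control wort. The 17 ribosomal RNA probe sets averaged 9.61 in maltose wort with Flavourzyme, 8.70 and 8.74 in maltose control wort, 13.2 and 12.2 in glucose wort with Flavourzyme, and 11.2 and 11.7 in glucose control wort. Ribosomal RNA signal was thus lower in maltose wort and, in both worts, higher with Flavourzyme, and its part in the results below was not tested.

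**Figure D1:**
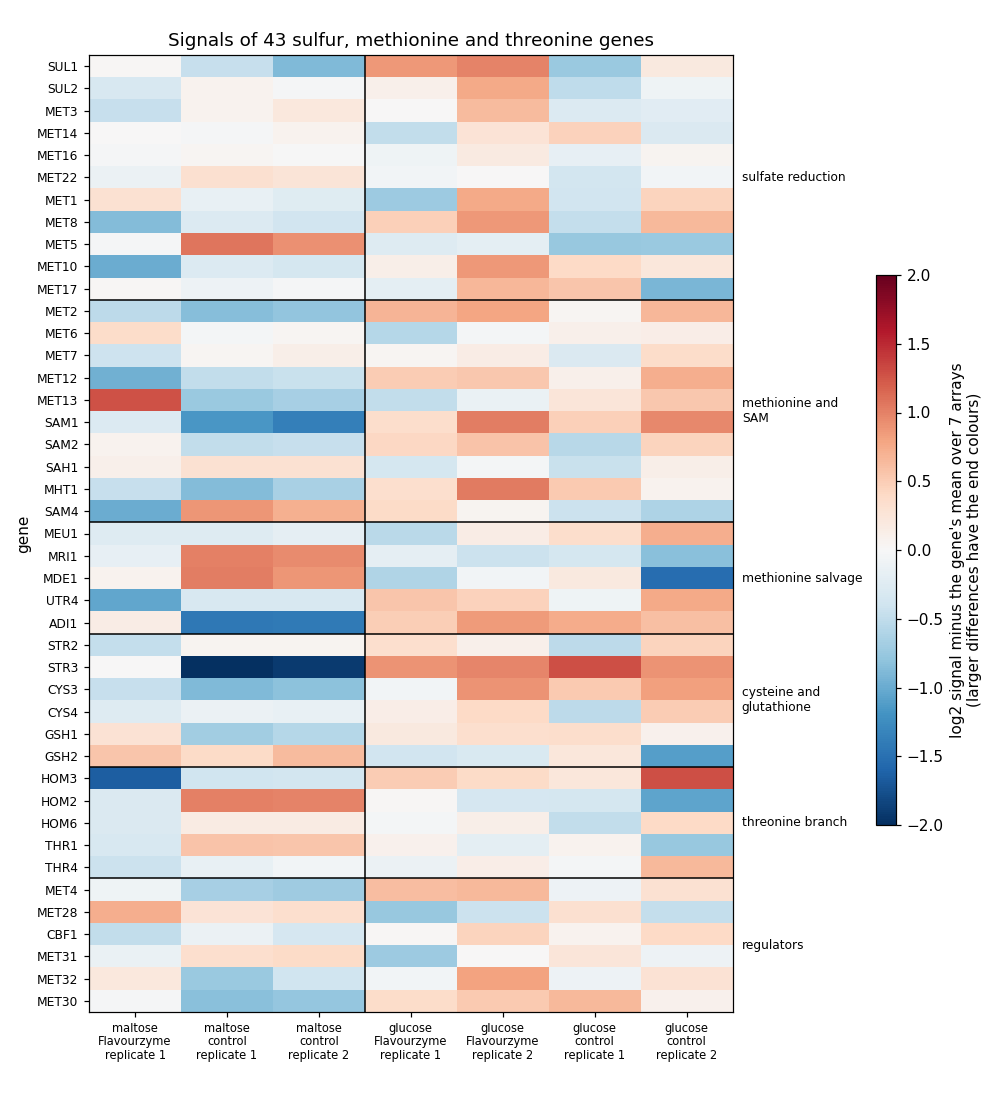
Signals of the 43 genes (rows, grouped by role) on the 7 arrays (columns), each drawn as the log2 signal minus the mean of that gene over the 7 arrays, with red for higher and blue for lower. STR3, ADI1 and SAM1 were blue in both maltose control arrays, and MET5, MRI1 and HOM2 were red there.

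The maltose worts were first compared with the glucose worts over both enzyme states (difference between the average of both maltose groups and that of both glucose groups, limma, p adjusted by Benjamini-Hochberg over all genes). Of the 43 genes, 12 were lower and 4 higher in maltose wort at an adjusted p under 0.05, which is 27.9% and 9.30% of them, beside 11.3% lower and 23.0% higher among all genes. At an unadjusted p under 0.05 there were 20, beside 50.0% of all genes. The median log2 fold change of the 43 genes was -0.30, and that of all genes 0.26. With the fold threshold of the study's methods added (an absolute log2 fold change over 1.301, a number that is also -log10 of 0.05), 4 genes were lower, STR3, HOM3, SAM1 and ADI1, and 0 higher, beside 3.57% and 5.24% of all genes. With each array centred on the median of its S. cerevisiae genes, 15 of the 43 genes were lower and 2 higher at the same adjusted p, beside 14.7% lower and 16.3% higher among all genes. With quantile normalization over the S. cerevisiae probe sets 14 were lower and 4 higher, beside 15.8% and 17.3% of all genes. The single maltose Flavourzyme array weighed as much in the maltose average as both maltose control arrays together. Of the genes that passed as deposited, HOM3, MET10, MET12, MHT1, UTR4 and MET28 did not pass between the control worts alone, while the others did.

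The ranges of the worts did not overlap for 15 of the 43 genes. In 12 of them, or 27.9%, every maltose array read below every glucose array, which held for 14.2% of all genes. In the other 3, MET5, MRI1 and GSH2, or 6.98%, every maltose array read above every glucose array, beside 26.9% of all genes. The remaining 28 overlapped.

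**Figure D2:**
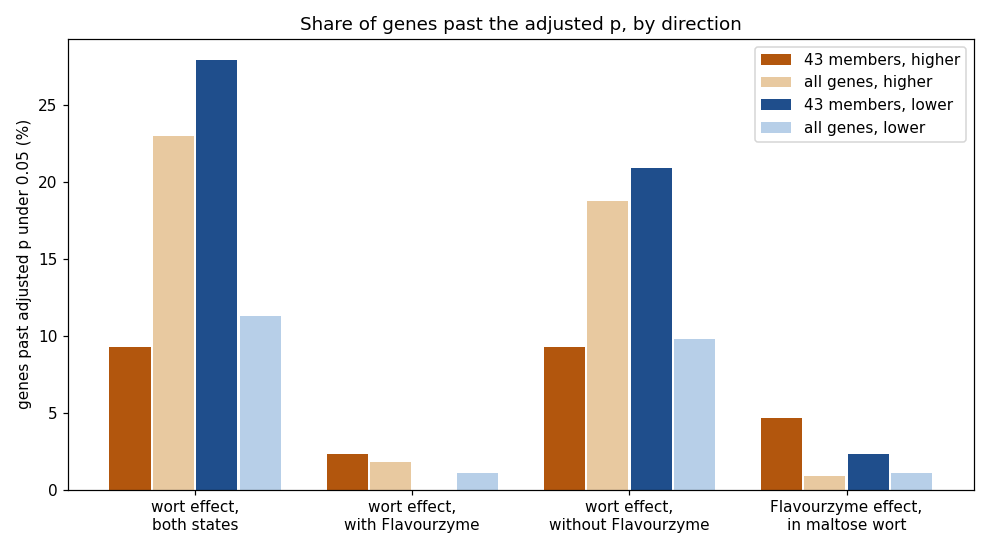
Share of genes past an adjusted p of 0.05 (limma), in percent, for the 43 genes (dark bars) and all 5635 genes tested (pale bars), higher (brown) or lower (blue), in 4 comparisons. In the wort effect, 27.9% of the 43 genes were lower, beside 11.3% of all genes.

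Cysteine and glutathione metabolism held the gene with the largest wort difference of the list. STR3 encodes cystathionine beta-lyase, which makes homocysteine from cystathionine. It read 11.12 in maltose wort with Flavourzyme, 8.93 and 9.20 in maltose control wort, 12.01 and 12.08 in glucose wort with Flavourzyme, and 12.40 and 12.01 in glucose control wort. Both maltose control arrays lay far below the other 5, and the maltose Flavourzyme array lay between them and the glucose arrays. Without Flavourzyme, STR3 was lower in maltose wort with a log2 fold change of -3.14 (standard error, SE, 0.22, adjusted p = 0.00501), an 8.80-fold difference and the 30th lowest of all genes. With Flavourzyme, the difference between the worts was -0.93 (SE 0.27) and did not pass the test (adjusted p = 0.0952).

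CYS3, the cystathionine gamma-lyase that releases cysteine, read 9.66 in maltose wort with Flavourzyme, 9.24 and 9.31 in maltose control wort, 10.07 and 11.02 in glucose wort with Flavourzyme, and 10.64 and 10.94 in glucose control wort. All maltose arrays were below all glucose arrays. GSH1, which catalyses the first step of glutathione synthesis, read 12.62 in maltose wort with Flavourzyme, 11.65 and 11.76 in maltose control wort, 12.53 and 12.67 in glucose wort with Flavourzyme, and 12.68 and 12.43 in glucose control wort. Here the maltose control arrays alone stood apart, and the maltose Flavourzyme array lay within the range of the glucose arrays. Without Flavourzyme, CYS3 was lower in maltose wort, at -1.52 (SE 0.34, adjusted p = 0.0269) and GSH1 at -0.85 (SE 0.20, adjusted p = 0.0287). GSH2, the glutathione synthetase, read 9.39 in maltose wort with Flavourzyme, 9.23 and 9.47 in maltose control wort, 8.45 and 8.53 in glucose wort with Flavourzyme, and 9.07 and 7.74 in glucose control wort. Its mean log2 fold change between the worts was 0.92 and did not pass (adjusted p = 0.083), with glucose control arrays that differed by more than 1 unit. STR2 and CYS4, the cystathionine synthases, passed in no comparison.

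Methionine salvage rebuilds methionine from the methylthioadenosine left over when SAM is used for polyamines. Its enzymes moved in both directions between the worts. ADI1, the acireductone dioxygenase near the end of the cycle, read 11.23 in maltose wort with Flavourzyme, 9.65 and 9.66 in maltose control wort, 11.56 and 11.94 in glucose wort with Flavourzyme, and 11.83 and 11.68 in glucose control wort. MRI1, the isomerase early in the cycle, read 7.82 in maltose wort with Flavourzyme, 8.99 and 8.93 in maltose control wort, 7.80 and 7.56 in glucose wort with Flavourzyme, and 7.63 and 7.15 in glucose control wort. For both genes the maltose control arrays stood apart, ADI1 below and MRI1 above, while the maltose Flavourzyme array lay close to the glucose arrays. Without Flavourzyme, ADI1 was lower in maltose wort, at -2.10 (SE 0.21, adjusted p = 0.00766, 4.29-fold) and MRI1 higher by 1.57 (SE 0.24, adjusted p = 0.0126, 2.96-fold). Over both enzyme states MRI1 was higher by 0.85 (SE 0.19, adjusted p = 0.0228), and by 0.48 with quantile normalization over the S. cerevisiae probe sets (adjusted p = 0.047).

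UTR4, the enolase-phosphatase that acts just before Adi1, read 9.49 in maltose wort with Flavourzyme, 10.22 and 10.22 in maltose control wort, 11.09 and 11.00 in glucose wort with Flavourzyme, and 10.45 and 11.30 in glucose control wort. It was lower in maltose wort on every array, at -1.10 over both enzyme states (SE 0.24, adjusted p = 0.0231). Between the control worts the value was -0.65 and did not pass (adjusted p = 0.157). MDE1, the dehydratase after Mri1, read 7.39 in maltose wort with Flavourzyme, 8.34 and 8.20 in maltose control wort, 6.71 and 7.26 in glucose wort with Flavourzyme, and 7.51 and 5.79 in glucose control wort. Its difference between the control worts was 1.62 and did not pass (adjusted p = 0.079), and its glucose control pair was wide (SD 1.21, n = 2). MEU1, the phosphorylase that opens the cycle, read 8.50 in maltose wort with Flavourzyme, 8.50 and 8.57 in maltose control wort, 8.20 and 8.90 in glucose wort with Flavourzyme, and 9.10 and 9.47 in glucose control wort. Its values lay between -0.75 and 0.70 in the 7 comparisons and passed in none.

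Among the genes of methionine and SAM synthesis, 4 of 10 were lower over both enzyme states and 0 higher at the adjusted p. Among all genes, 11.3% were lower and 23.0% higher. SAM1, 1 of 2 SAM synthetases, read 9.42 in maltose wort with Flavourzyme, 8.53 and 8.32 in maltose control wort, 10.05 and 10.72 in glucose wort with Flavourzyme, and 10.18 and 10.65 in glucose control wort. All maltose arrays were lower, and the difference between the control worts was -1.99 (SE 0.30, adjusted p = 0.0127, 3.97-fold). Its paralog SAM2 read 12.63 in maltose wort with Flavourzyme, 12.07 and 12.10 in maltose control wort, 12.98 and 13.14 in glucose wort with Flavourzyme, and 12.01 and 13.01 in glucose control wort. The SAM2 arrays of the worts overlapped, and it passed in no comparison.

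MET2, the acetyltransferase that commits homoserine to methionine, read 10.65 in maltose wort with Flavourzyme, 10.33 and 10.39 in maltose control wort, 11.85 and 11.98 in glucose wort with Flavourzyme, and 11.23 and 11.84 in glucose control wort. MHT1, which methylates homocysteine from S-methylmethionine, read 7.86 in maltose wort with Flavourzyme, 7.45 and 7.66 in maltose control wort, 8.65 and 9.36 in glucose wort with Flavourzyme, and 8.84 and 8.39 in glucose control wort. Both were lower on every maltose array. Over both enzyme states MET2 was lower in maltose wort, at -1.22 (SE 0.20, adjusted p = 0.0136) and MHT1 at -1.10 (SE 0.24, adjusted p = 0.0235). Between the control worts MHT1 was at -1.06 and did not pass (adjusted p = 0.0507). MET6, the methionine synthase, MET7, which extends folates, and SAH1, which clears S-adenosylhomocysteine, passed in no comparison and stayed between -0.55 and 0.77 in all 7.

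The genes MET12 and MET13 encode isozymes of methylenetetrahydrofolate reductase, which supplies the methyl group for methionine. MET12 read 9.41 in maltose wort with Flavourzyme, 9.87 and 9.92 in maltose control wort, 10.88 and 10.91 in glucose wort with Flavourzyme, and 10.46 and 11.09 in glucose control wort. MET13 read 11.84 in maltose wort with Flavourzyme, 9.82 and 9.90 in maltose control wort, 10.08 and 10.45 in glucose wort with Flavourzyme, and 10.81 and 11.11 in glucose control wort. MET12 was thus lowest, and MET13 highest, on the single array of maltose wort with Flavourzyme. MET12 was lower in maltose wort over both enzyme states, at -1.18 (SE 0.20, adjusted p = 0.0144), while between the control worts it was at -0.88 and its adjusted p was just over 0.05. MET13 differed between the worts in opposite directions, with 1.58 with Flavourzyme (SE 0.28, adjusted p = 0.0494, 2.98-fold) and -1.10 without it (SE 0.22, adjusted p = 0.0214, 2.14-fold). With each array centred on its S. cerevisiae median, the value with Flavourzyme was 1.39 and did not pass (adjusted p = 0.0573). In the test without moderation neither value passed (adjusted p = 0.116 with Flavourzyme and 0.0705 without it). The maltose side with Flavourzyme was 1 array, assumed to vary like the duplicates. The test of the difference between the worts' values in the 2 enzyme states gave 2.67 (SE 0.36) and did not pass (adjusted p = 0.0614). MET13 was the 1 of the 43 genes that passed between the worts with Flavourzyme, or 2.33%, beside 2.91% of all genes (1.81% higher and 1.10% lower).

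SAM4, which methylates homocysteine from SAM, showed the reverse order. It read 6.32 in maltose wort with Flavourzyme, 8.20 and 8.03 in maltose control wort, 7.69 and 7.37 in glucose wort with Flavourzyme, and 6.88 and 6.70 in glucose control wort. The maltose control arrays were the highest and the maltose Flavourzyme array the lowest. Without Flavourzyme, SAM4 was higher in maltose wort by 1.33 (SE 0.21, adjusted p = 0.0132), and by 0.86 with quantile normalization over the S. cerevisiae probe sets (adjusted p = 0.0409). With Flavourzyme, the value was -1.21 (SE 0.26) and did not pass (adjusted p = 0.0603).

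**Figure D3:**
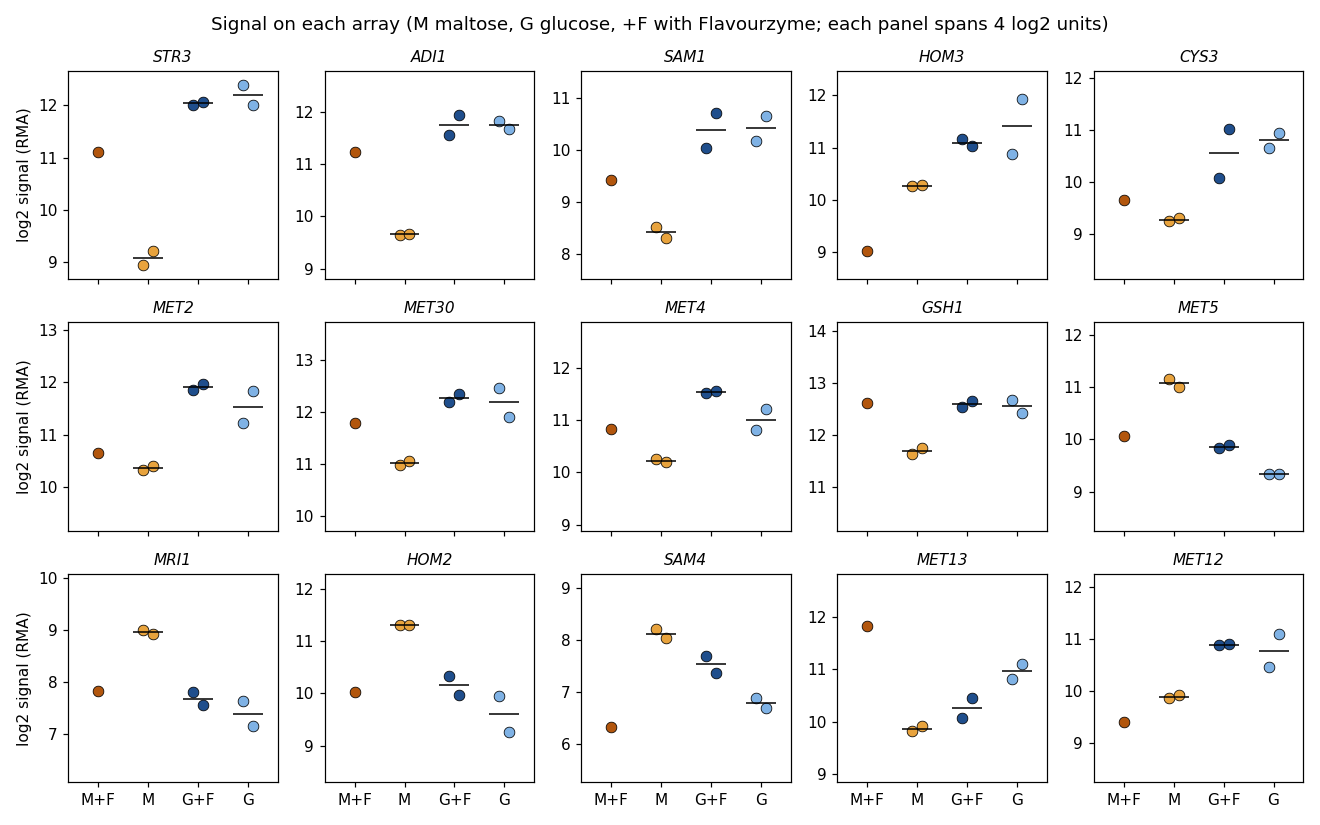
Log2 signal of 15 genes on each array, with maltose (M) in brown and orange, glucose (G) in blue, and dark points for Flavourzyme (+F). Bars are means of duplicates, and every panel spans the same number of log2 units. STR3, ADI1, SAM1, CYS3 and GSH1 were lowest in maltose control wort, and MET13 was highest on the maltose Flavourzyme array (11.84).

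In sulfate reduction, 2 of 11 genes passed between the worts over both enzyme states, beside 34.3% of all genes. These 2 encode the subunits of sulfite reductase, the enzyme that makes sulfide. MET5, the beta subunit, read 10.07 in maltose wort with Flavourzyme, 11.16 and 11.00 in maltose control wort, 9.84 and 9.89 in glucose wort with Flavourzyme, and 9.34 and 9.34 in glucose control wort. MET10, the alpha subunit, read 8.83 in maltose wort with Flavourzyme, 9.56 and 9.48 in maltose control wort, 9.95 and 10.70 in glucose wort with Flavourzyme, and 10.24 and 10.06 in glucose control wort. Every maltose array was above every glucose array for MET5 and below every glucose array for MET10. Without Flavourzyme, MET5 was higher in maltose wort by 1.74 (SE 0.18, adjusted p = 0.00786, 3.34-fold), and with Flavourzyme by 0.21 (SE 0.22), which did not pass (adjusted p = 0.54). MET10 was lower in maltose wort over both enzyme states, at -1.06 (SE 0.23, adjusted p = 0.0218), but between the control worts the value was -0.63 and did not pass (adjusted p = 0.148).

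The other 9 genes of sulfate reduction passed in no comparison. They were the sulfate permeases SUL1 and SUL2, MET3, MET14 and MET16 of sulfate activation and reduction, the phosphatase MET22, MET1 and MET8 of siroheme synthesis, and MET17, which joins sulfide to the carbon chain. The lowest of their log2 fold changes was that of MET8 between the worts with Flavourzyme. MET8 read 7.92 in maltose wort with Flavourzyme, 8.52 and 8.41 in maltose control wort, 9.27 and 9.66 in glucose wort with Flavourzyme, and 8.31 and 9.43 in glucose control wort, and the ranges of the worts overlapped. Its value of -1.54 between the worts with Flavourzyme had an adjusted p of 0.105.

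In the threonine branch, the enzymes of the first steps moved in opposite directions. HOM3, the aspartate kinase that opens the branch, read 9.01 in maltose wort with Flavourzyme, 10.25 and 10.29 in maltose control wort, 11.15 and 11.04 in glucose wort with Flavourzyme, and 10.88 and 11.94 in glucose control wort. HOM2, the aspartate semialdehyde dehydrogenase that follows, read 10.03 in maltose wort with Flavourzyme, 11.32 and 11.31 in maltose control wort, 10.34 and 9.98 in glucose wort with Flavourzyme, and 9.96 and 9.27 in glucose control wort. HOM3 was lower on every maltose array and lowest with Flavourzyme, while HOM2 was high in the maltose control arrays alone. Over both enzyme states HOM3 was lower in maltose wort, at -1.62 (SE 0.28, adjusted p = 0.0152, 3.06-fold). Between the control worts it was -1.14 and did not pass (adjusted p = 0.0619). HOM2 was higher in maltose wort without Flavourzyme by 1.70 (SE 0.29, adjusted p = 0.0147, 3.26-fold), and with Flavourzyme the value was -0.13 (adjusted p = 0.816). Its value over both enzyme states, 0.79 (adjusted p = 0.0446), became 0.63 and did not pass with each array centred on its S. cerevisiae median (adjusted p = 0.0787). HOM6, the homoserine dehydrogenase, THR1, the homoserine kinase, and THR4, the threonine synthase, passed in no comparison, and their values lay between -1.17 and 0.91.

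Of the 6 regulators, 3 passed between the worts over both enzyme states, beside 34.3% of all genes. MET4, the transcriptional activator of the pathway, read 10.83 in maltose wort with Flavourzyme, 10.25 and 10.20 in maltose control wort, 11.53 and 11.56 in glucose wort with Flavourzyme, and 10.81 and 11.22 in glucose control wort. MET30, the ubiquitin ligase subunit that inactivates Met4, read 11.78 in maltose wort with Flavourzyme, 10.97 and 11.04 in maltose control wort, 12.18 and 12.34 in glucose wort with Flavourzyme, and 12.46 and 11.90 in glucose control wort. The maltose control arrays were the lowest for both genes. MET4 was lower in maltose wort, at -0.75 (SE 0.17, adjusted p = 0.0237) and MET30 at -0.82 (SE 0.19, adjusted p = 0.0262).

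MET28, a partner of Met4, read 10.66 in maltose wort with Flavourzyme, 10.20 and 10.27 in maltose control wort, 9.17 and 9.50 in glucose wort with Flavourzyme, and 10.25 and 9.46 in glucose control wort. It was higher in maltose wort by 0.85 (SE 0.24, adjusted p = 0.0431), with ranges that overlapped through 1 glucose control array. Between the control worts the value was 0.38 (adjusted p = 0.382), and with each array centred on its S. cerevisiae median 0.70 (adjusted p = 0.0576), neither of which passed. The DNA-binding factors CBF1, MET31 and MET32 passed in no comparison, and CBF1, with every maltose array below every glucose array, came nearest (adjusted p = 0.0602 over both enzyme states). MET31 read 7.69 in maltose wort with Flavourzyme, 8.16 and 8.21 in maltose control wort, 7.09 and 7.83 in glucose wort with Flavourzyme, and 8.06 and 7.72 in glucose control wort, and the ranges of the worts overlapped.

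**Figure D4:**
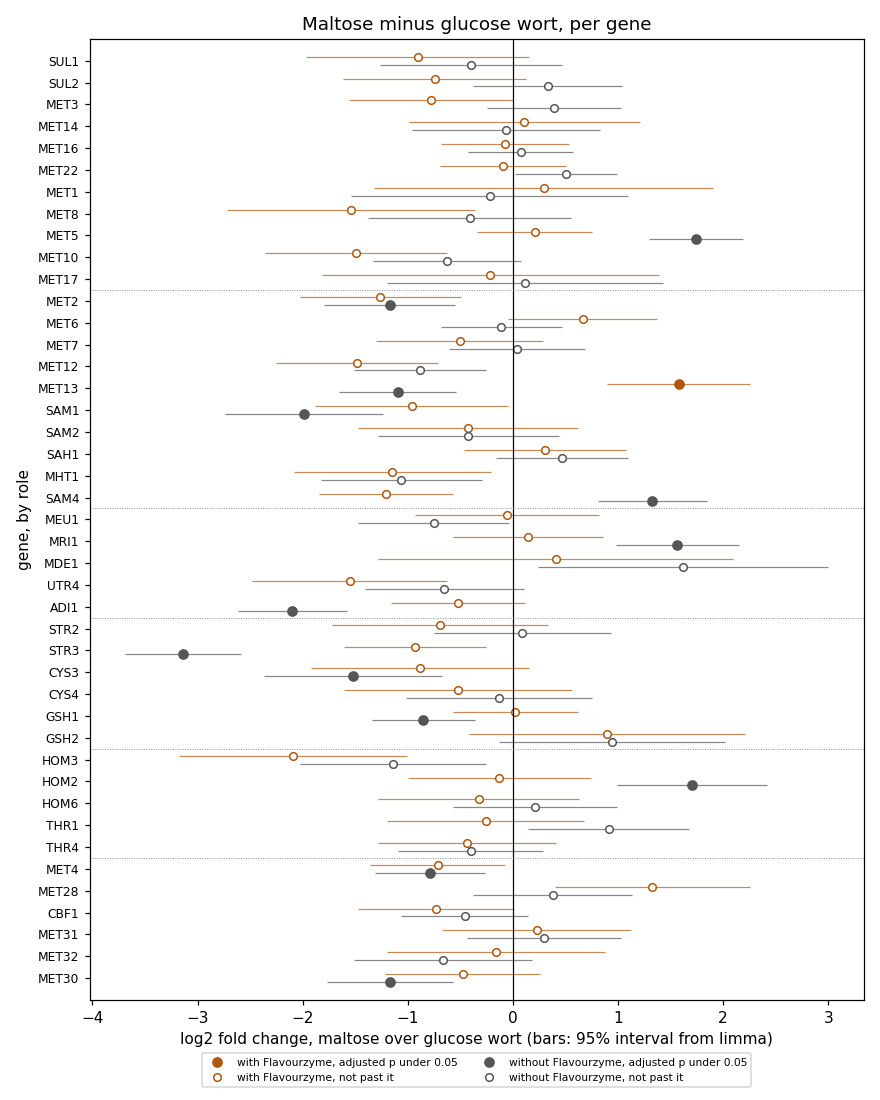
Log2 fold change of maltose over glucose wort for each of the 43 genes, with Flavourzyme (brown) and without it (grey); bars are 95% intervals from limma and filled points passed an adjusted p of 0.05. Without Flavourzyme 13 genes passed, from STR3 (-3.14) to MET5 (1.74), and with it MET13 (1.58).

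Split by enzyme state, 13 of the 43 genes passed between the worts without Flavourzyme, or 30.2%, beside 28.6% of all genes. Of these, 9 were lower (STR3, ADI1, SAM1, CYS3, MET2, MET30, MET13, GSH1 and MET4) and 4 higher (MET5, HOM2, MRI1 and SAM4), beside 9.81% lower and 18.7% higher among all genes. With Flavourzyme, where the maltose side was a single array, the median of the 43 genes was -0.43 beside 0.24 for all genes, and 14 genes had an unadjusted p under 0.05, beside 30.8% of all genes. The lowest values there were those of HOM3 (-2.09, adjusted p = 0.0602) and UTR4 (-1.55, adjusted p = 0.0731), and the highest after MET13 those of MET28 (1.33, adjusted p = 0.0896) and GSH2 (0.89, adjusted p = 0.29). None of the 43 genes passed the test of whether the wort difference depended on Flavourzyme (limma interaction), beside 0.0355% of all genes, and 9 had an unadjusted p under 0.05, beside 19.1% of all genes. The nearest were MET13 (2.67), SAM4 (-2.54), STR3 (2.21) and MET5 (-1.53), at adjusted p values of 0.0614, 0.0614, 0.0716 and 0.0883, before ADI1 (1.58, adjusted p = 0.101) and HOM2 (-1.84, adjusted p = 0.121). With quantile normalization over the S. cerevisiae probe sets, 5 of the 43 genes passed this test, 2 with a positive and 3 with a negative value, or 11.6%, beside 2.96% of all genes.

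The calls between the worts depended on which array was left out. With either maltose control array or either glucose Flavourzyme array left out, 0 of the 43 genes were called over both enzyme states, and of all genes at most 38 of 5635 were. Between the worts without Flavourzyme, 0 were called when either maltose control array was left out, beside 0.0177% of all genes, and 8 when either glucose Flavourzyme array was, or 18.6%, beside 8.61% of all genes. The glucose Flavourzyme arrays do not enter the log2 fold change between the control worts, so leaving them out could not move it. That of STR3 without Flavourzyme lay between -3.33 and -2.95 over all single arrays left out, and that of MET5 between 1.66 and 1.82. Others moved more, such as MET2 (-1.48 to -0.87) and HOM2 (1.36 to 2.05). Between the worts without Flavourzyme, 60.5% of the 43 genes were called without glucose control replicate 1, beside 66% of all genes, and 46.5% without glucose control replicate 2, beside 48.9% of all genes. Leaving out the maltose Flavourzyme array left only this comparison of the control worts.

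Flavourzyme was then compared with the control worts. In maltose wort, 3 of the 43 genes passed, or 6.98%, beside 1.99% of all genes (0.905% higher and 1.08% lower), and 11 had an unadjusted p under 0.05, beside 22.1% of all genes. STR3 was higher by 2.05 (SE 0.27, adjusted p = 0.0435, 4.13-fold), MET13 higher by 1.97 (SE 0.28, adjusted p = 0.0435, 3.93-fold) and SAM4 lower, at -1.79 (SE 0.26, adjusted p = 0.0441, 3.47-fold). ADI1 came next, at 1.57 (SE 0.26) with an adjusted p just over the threshold of 0.05. These values were taken from 1 array with Flavourzyme, which was assumed to vary like the duplicates, and they share the maltose control arrays with the comparison of the worts without Flavourzyme, so that the same low or high control reading enters both. The calls of all 3 were lost with either maltose control array or either glucose Flavourzyme array left out, as was every other call in this comparison. With either glucose control array left out, more genes were called, among the 43 and among all genes. Over these single arrays left out, STR3 lay between 1.91 and 2.18, MET13 between 1.93 and 2.02 and SAM4 between -1.88 and -1.71. Glucose arrays do not enter these values, and the single maltose Flavourzyme array could not be left out. The ranges therefore show only how far apart the maltose control duplicates lay.

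The 5 genes of the threonine branch all had negative values for Flavourzyme in maltose wort, with HOM2 at -1.29 (SE 0.35, adjusted p = 0.112), HOM3 at -1.26 (SE 0.44, adjusted p = 0.171) and a median of -0.88, beside -0.04 for all genes, and none passed. The 6 regulators had a median of 0.52 there, and the 11 genes of sulfate reduction a median of -0.35. MET5 was at -1.01 (SE 0.22, adjusted p = 0.078), MRI1 at -1.14 (SE 0.29, adjusted p = 0.099) and GSH1 at 0.92 (SE 0.24, adjusted p = 0.107).

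In glucose wort, 0 of the 43 genes and 0% of all genes passed for Flavourzyme. An unadjusted p under 0.05 was found for 7 of the 43, or 16.3%, beside 6.97% of all genes. SUL1, a high-affinity sulfate permease, read 5.02 in maltose wort with Flavourzyme, 4.54 and 4.12 in maltose control wort, 5.85 and 5.99 in glucose wort with Flavourzyme, and 4.25 and 5.19 in glucose control wort. Of the 4 control arrays, 3 lay under 4.96, the S. pombe level given above, so that the value of 1.20 for Flavourzyme in glucose wort (SE 0.35, adjusted p = 0.701) was not ranked. SUL2, the other permease, read 9.15 in maltose wort with Flavourzyme, 9.54 and 9.45 in maltose control wort, 9.57 and 10.22 in glucose wort with Flavourzyme, and 8.96 and 9.38 in glucose control wort, with 0.73 for Flavourzyme in glucose wort (SE 0.29, adjusted p = 0.701). SAM4 had a value of 0.74, and the lowest were those of MEU1 (-0.74), MET13 (-0.70) and MET28 (-0.52), at adjusted p values of at least 0.701. STR3, ADI1 and SAM1 were close to 0 in this comparison, with 95% intervals from -0.71 to 0.39, from -0.52 to 0.51 and from -0.78 to 0.72. When glucose control replicate 1 or 2 was left out, 4 and 13 of the 43 genes were called, or 9.30% and 30.2%, beside 9.99% and 33.3% of all genes, with a single glucose control array.

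**Figure D5:**
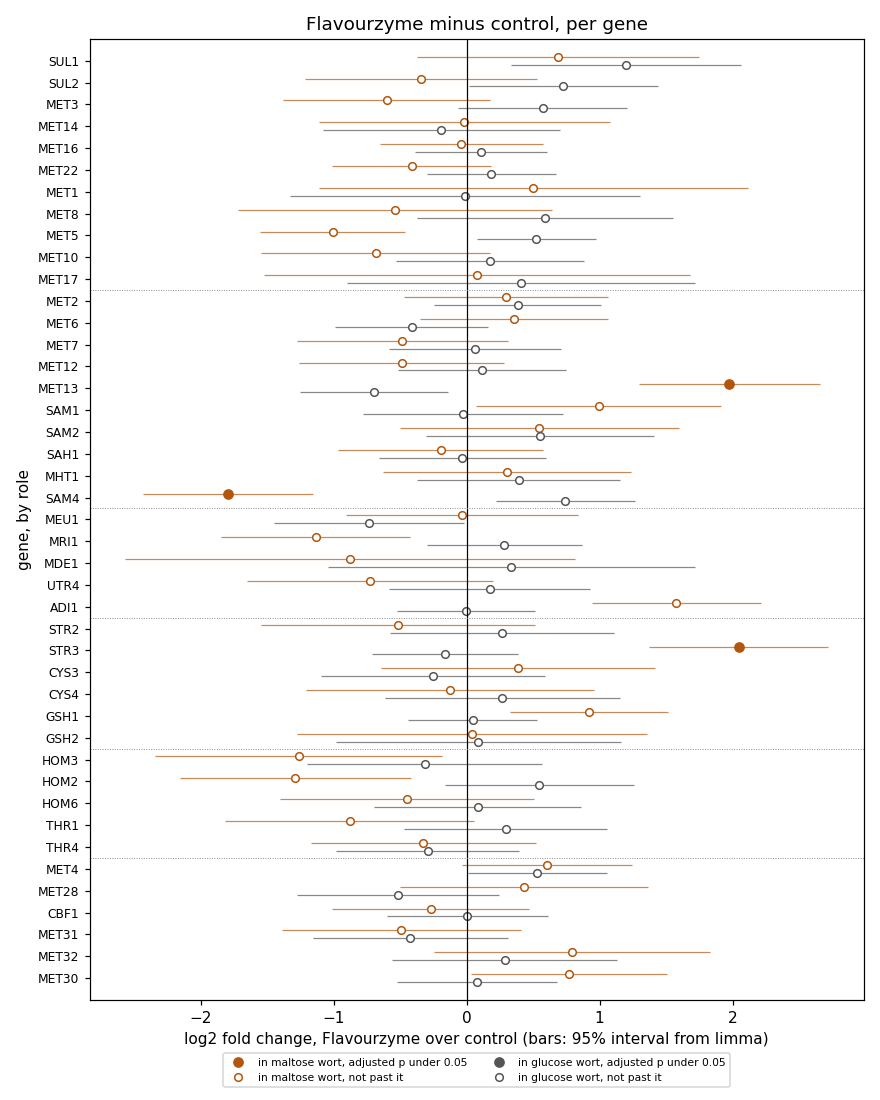
Log2 fold change of Flavourzyme over control wort for each of the 43 genes, in maltose wort (brown) and in glucose wort (grey); bars are 95% intervals from limma and filled points passed an adjusted p of 0.05. STR3 (2.05), MET13 (1.97) and SAM4 (-1.79) passed in maltose wort, and no gene did in glucose wort.

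Averaged over the worts, 0 of the 43 genes passed for Flavourzyme, beside 0.0355% of all genes, and 8 had an unadjusted p under 0.05, beside 16.0% of all genes. Apart from SUL1 (0.94, SE 0.28, adjusted p = 0.236), the highest values were those of STR3 (0.94, SE 0.18, adjusted p = 0.186) and ADI1 (0.79, adjusted p = 0.204). The lowest were those of HOM3 (-0.79, SE 0.28, adjusted p = 0.269), SAM4 (-0.53, adjusted p = 0.25) and MET31 (-0.46, adjusted p = 0.412).

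Over the 7 comparisons, 19 of the 43 genes passed an adjusted p of 0.05 at least once, or 44.2%, beside 41.2% of all genes, and 24 in none. By role these 19 were 2 of 11 in sulfate reduction, 6 of 10 in methionine and SAM synthesis and 3 of 5 in salvage. The others were 3 of 6 in cysteine and glutathione metabolism, 2 of 5 in the threonine branch and 3 of 6 regulators.

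Beside these genes, 25 genes of sulfur compound transport, polyamine synthesis, glutathione use, methionine repair, threonine use and other sulfur steps were examined. Over both enzyme states 6 of the 25 passed between the worts, or 24%, beside 34.3% of all genes, 3 higher and 3 lower in maltose wort. None of them was past the fold threshold, beside 8.80% of all genes. For Flavourzyme 0 passed in either wort, beside 1.99% of all genes in maltose wort and 0% in glucose wort. Lower were MUP3, a low-affinity methionine permease (-1.01, SE 0.14, adjusted p = 0.00998), the glutathione reductase GLR1 (-0.87) and the oligopeptide transporter OPT1 (-0.59). Higher were MXR2, a mitochondrial methionine sulfoxide reductase (1.03), and the spermidine and spermine synthases SPE3 (0.88) and SPE4 (0.77). MUP3 read 11.47 in maltose wort with Flavourzyme, 10.24 and 10.25 in maltose control wort, 11.99 and 11.95 in glucose wort with Flavourzyme, and 11.80 and 11.74 in glucose control wort. Its maltose control arrays were the lowest, and without Flavourzyme it was lower in maltose wort, at -1.53 (SE 0.17, adjusted p = 0.00837). Of the other 24, GLR1 (-0.81), DUG3 of glutathione breakdown (-1.01), MXR2 (1.25) and SPE4 (0.87) also passed between the worts without Flavourzyme. With MUP3 these were 5 of the 25, beside 28.6% of all genes.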

How the data were processed

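The authors generated the array intensity files in Affymetrix Microarray Suite and made the deposited log2 values by RMA (R package affy), a method of background correction, quantile normalization across arrays and median polish over the probes of a set. No further normalization was applied to them. Of 10928 probe sets, 5685 named S. cerevisiae genes, and the probe set with the highest mean was kept for 48 genes with several, which left 5635 genes.

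Group means were fitted to all 7 arrays with limma 3.58.1 in R 4.3.3, with a residual standard deviation moderated by 2.78 prior degrees of freedom beside 3 residual ones and Benjamini-Hochberg adjustment over all genes. A gene passed at an adjusted p under 0.05. The call for the wort and Flavourzyme effects over both states of the other factor also required an absolute log2 fold change over 1.301, as in the study's methods (the number also equals -log10 of 0.05, and was kept as a log2 fold change, as written there), and the 5 other comparisons did not. The methods name a 2-way test on the same groups, which was run without moderation as an alternative. The fit was tested on simulated data in which each gene had the same spread in every group. The duplicates here had unequal spread, a setting that was not simulated.

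The study's text describes duplicate fermentations, but the labels of the arrays give only a replicate number, so that p-values measure the spread between these arrays, which may be technical. Precision is limited by how few arrays there were. Array scan dates were not used here.

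The members and lists were chosen with earlier results of these data known. Members named with all arrays were those that passed in any comparison, together with the 3 highest and 3 lowest values of each comparison. SAM2 was also shown, chosen after its values were seen. Alternatives were another scaling (quantile normalization over the S. cerevisiae probe sets, or arrays centred on their S. cerevisiae median), an intensity trend, no dim genes, means of probe sets, the replicate number as a block, the call rule and each array left out. A search for motifs in promoters was planned and not run, since no sequence table was used here.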

Additional observations from a re-analysis of the deposited data

How the results depend on the processing

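With the S. cerevisiae probe sets scaled again by quantiles, the median wort difference of all genes was 0.07 and with centred arrays 0.11, beside 0.26 as deposited, so that a direction near 0 depends on the scaling. Quantile normalization gave 5 members called for the interaction (2.96% of all genes), 6 for Flavourzyme in maltose wort (3 higher and 3 lower, beside 2 and 1; 7.51% of all genes) and 5 between the worts with Flavourzyme (1 higher and 4 lower, beside 1 and 0; 6.26% of all genes). Centring gave 7 for the wort effect (8.13% of all genes) and 0 between the worts with Flavourzyme (1.61%). The 2-way test without moderation gave 2 for the wort effect (2.45% of all genes), 0 for Flavourzyme in maltose wort (0.16%), 0 between the worts with Flavourzyme (0.248%) and 4 between those without (10.3%). An intensity trend gave 2 for the interaction (0.887%). By adjusted p alone the wort effect had 16 members (34.3%), and with the fold threshold the worts without Flavourzyme had 8 (13.5%). The cause of these changes was not tested, except that the last 2 follow from the call rule. Means of probe sets and the removal of dim genes moved no count of called members by over 1.5 times.

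Leaving out each array in turn gave from 0 to 8 members called for the wort effect (at most 16.2% of all genes), 0 to 0 for the Flavourzyme effect (0.976%), 0 to 19 for the interaction (39%) and for Flavourzyme in maltose wort (38.4%), 0 to 13 for Flavourzyme in glucose wort (33.3%), 0 to 21 between the worts with Flavourzyme (54.1%) and 0 to 26 between those without (66%). Where this left 1 array in a group, that array was assumed to vary like the other groups. Without the maltose Flavourzyme array, 3 of these comparisons had no value. The wort effect was then the difference between the control worts, and the Flavourzyme effect that in glucose wort. The 8 members given for the wort effect came from this fit (13.5% of all genes), and the 16.2% from another fit. For GSH2, Flavourzyme effect in glucose wort, the log2 fold change reversed to -0.58 (adjusted p = 0.0435) without glucose control replicate 2 and was 0.75 without glucose control replicate 1, beside 0.09 with all arrays.

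Deviations of same-numbered arrays correlated only weakly over all genes, at 0.10, 0.01 and 0.18 between the 3 pairs of duplicate groups. Weak correlations cannot exclude that same-numbered arrays were handled together, which was not tested. The median of replicate 1 minus replicate 2 over the members was -0.27 in glucose wort with Flavourzyme and -0.30 in glucose control wort. In maltose control wort it was -0.005. With the replicate block, 3 members were called for the wort effect (7.4% of all genes), 0 for Flavourzyme in maltose wort (0.0355%), 0 between the worts with Flavourzyme (0%) and 12 between those without (26.5%).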
